A study of Mus musculus with 6 samples.

Results

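The 8 genes described here encode parts of the phagocyte NADPH oxidase, the receptors that switch it on and a kinase that acts beside them. They are *Cybb*, *Cyba*, *Ncf1*, *Ncf4*, *Rac2*, *Fpr1*, *Fpr2* and *Fgr*, and they were taken by name from the 54838 genes in the deposited count table of I1DN leukemia cells. Of the 8 genes, 7 had enough counts to be tested between AG636 and vehicle, together with 11092 genes in all, and *Fpr1* did not.

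I1DN is a murine AML on a C57BL/6 background that carries IDH1R132H, DNMT3AR882H and NrasG12D, and both groups share these alleles. The authors made it by transducing fetal liver stem and progenitor cells, and thawed cells of a moribund mouse were passed on to sublethally irradiated Ptprca recipients. Whether a single donor mouse served all recipients is not given, so the 6 libraries may descend from the same leukemia. Recipients received vehicle (3 mice) or 100 mg/kg AG636 by oral gavage b.i.d. (3 mice). AG636 blocks DHODH, an enzyme of *de novo* pyrimidine synthesis. Treatment of these mice is described in one place as lasting 1 day and in another as 4 days. The age of the mice is not given. Leukemic cells were sorted from bone marrow and spleen on cKit and low or absent CD11b, and which organ each library came from is not given. RNA was sequenced from the 3′ end of each transcript, which samples a single end of each molecule, so counts of different genes are not scaled to length here. The comparison asks how inhibition of DHODH changes the RNA of these genes in the leukemic cells that remain.

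The NADPH oxidase of neutrophils and macrophages passes electrons from NADPH across a membrane to oxygen and so makes superoxide, which is used to kill microbes. Its catalytic core sits in the membrane as a pair of proteins encoded by *Cybb* and *Cyba*. The organizer *Ncf1*, the adaptor *Ncf4* and the GTPase *Rac2* stay in the cytosol until the cell is stimulated. Formyl peptide receptors sense formylated peptides from bacteria and mitochondria, signal through Gi proteins and are among the classical triggers of the oxidase. *Fgr* is a Src family kinase of mature myeloid cells that works with *Lyn* downstream of integrins and Fc receptors.

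Libraries held from 4634963 to 7906589 counts, so that 3 counts correspond to 0.391 to 0.635 CPM (counts scaled to the library size). A gene is called here where its adjusted p is under 0.05, as 21.3% of the 11092 genes were, with 1145 higher and 1222 lower with AG636. With library size alone as the scaling, 1473 were higher and 915 lower, and the median log2 fold change of all genes moved from 0.03 to 0.12. Without AG636 replicate 3 the same test called 399 and 452 genes. Principal component 1 (58.6% of the variance) separated the groups. Vehicle replicate 1 and AG636 replicate 2 lay farthest from the other mice of their groups, so results are also given without these 2 libraries, an alternative chosen after seeing the data. Replicates are different mice.

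Markers of immature myeloid cells, the labelled cell type, were present in every library, and 0 of 6 were called by edgeR, DESeq2 or limma-voom, with 0 at an unadjusted p under 0.05 in edgeR. *Kit*, which encodes the receptor used in the gate, had 43, 31.7 and 40.8 CPM in the vehicle mice and 46.1, 37.2 and 44.6 CPM in the AG636 mice, and its log2 fold change of 0.15 was not called (edgeR, Benjamini-Hochberg adjusted p = 0.551). *Cd34* had a log2 fold change of 0.45 (edgeR, Benjamini-Hochberg adjusted p = 0.161). The peroxidase gene *Mpo* ranged from 1248 to 2763 CPM with vehicle and from 616 CPM in AG636 replicate 2 to 2015 CPM with AG636, at a log2 fold change of -0.65 (edgeR, Benjamini-Hochberg adjusted p = 0.266). Without these 2 libraries *Mpo* was called lower at -0.58 (edgeR, Benjamini-Hochberg adjusted p = 0.0109) and the elastase gene *Elane* higher at 1.18 (edgeR, Benjamini-Hochberg adjusted p = 0.0118), and without AG636 replicate 2 alone *Elane* was called at 1.47 (edgeR, Benjamini-Hochberg adjusted p = 0.0199). With all mice *Elane*, named here after its values were seen, was at 1.05 (edgeR, Benjamini-Hochberg adjusted p = 0.152). With no filter on low counts, 3 of the 6 were called higher and 1 lower.

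The DNA just before the RefSeq transcript start of 3 oxidase genes is printed here. Of these, *Cybb* was called higher with AG636, and *Cyba* and *Ncf1* were not called. The sequences are the 250 bases before the RefSeq transcript start, read in the direction of the gene, from GRCm38.p6. *Cybb* is read from the minus strand of chrX:9469325-9469574, *Cyba* from the minus strand of chr8:122432941-122433190 and *Ncf1* from the minus strand of chr5:134229626-134229875. The window of *Cybb* lies inside the annotated gene span used for counting, 9435252 to 9487771, so its RefSeq start is not the start of that span. None of these bases lies in an annotated exon, and capitals mark a motif of interferon regulatory factors, GAAA followed by any 2 bases and GAAA again, on either strand.
Cybb: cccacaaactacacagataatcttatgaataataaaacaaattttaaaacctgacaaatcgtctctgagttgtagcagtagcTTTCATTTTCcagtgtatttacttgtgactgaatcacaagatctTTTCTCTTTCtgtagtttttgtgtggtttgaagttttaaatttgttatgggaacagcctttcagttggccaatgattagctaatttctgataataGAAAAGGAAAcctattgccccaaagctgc
Cyba: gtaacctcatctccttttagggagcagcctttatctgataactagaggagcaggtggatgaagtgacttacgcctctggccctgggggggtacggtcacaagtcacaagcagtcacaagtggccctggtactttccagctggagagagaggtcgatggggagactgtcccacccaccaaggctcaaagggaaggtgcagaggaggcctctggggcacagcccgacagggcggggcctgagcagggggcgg
Ncf1: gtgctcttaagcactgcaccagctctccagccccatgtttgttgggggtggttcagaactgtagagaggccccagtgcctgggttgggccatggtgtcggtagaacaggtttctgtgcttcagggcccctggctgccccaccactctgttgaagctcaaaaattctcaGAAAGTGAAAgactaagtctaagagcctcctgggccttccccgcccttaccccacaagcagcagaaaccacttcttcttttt
Over a window that also held the first 50 transcribed bases, *Cybb* had 3 matches to this motif, at -168, -124 and -29. These positions are those of the first base from the start. *Ncf1* had 1 at -82, and *Cyba*, *Fpr1*, *Fpr2* and *Fgr* had 0. Of 32851 RefSeq windows of the same length, 3.44% held the motif. The PU.1 core GAGGAA was found 1 time in *Cybb*, at 10 bases into the transcript on the opposite strand. *Fpr2* and *Fgr* also held it 1 time each, and *Cyba*, *Ncf1* and *Fpr1* 0 times. Of all windows, 28.3% held this core. It overlapped no match to the longer motif. The C/EBP motif TTNCNNAA had 0 matches in *Cybb*, *Cyba* and *Ncf1*, 3 in *Fpr1*, 3 in *Fpr2* and 1 in *Fgr*. Of all windows, 40.7% held it. The upstream bases of *Cybb* were 34% G or C, those of *Cyba* 60% and those of *Ncf1* 54.4%. The RefSeq table matched 6 of the 8 genes, all but *Ncf4* and *Rac2*. A match describes letters in a window and was not tested as a binding site. Its relation to the changes in RNA was not tested either.

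Of the 7 genes tested, 1 was called higher with AG636, 0 were called lower and all 7 had log2 fold changes above 0, from 0.08 to 1.72, with a median of 0.58. Over all genes tested the median was 0.03 and 10.3% were called higher. The CPM of the groups did not overlap for 2 of the 7 genes, *Cybb* and *Rac2*, against 20.5% of all genes tested in that direction. The gene called was *Cybb*.

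**Figure D1:**
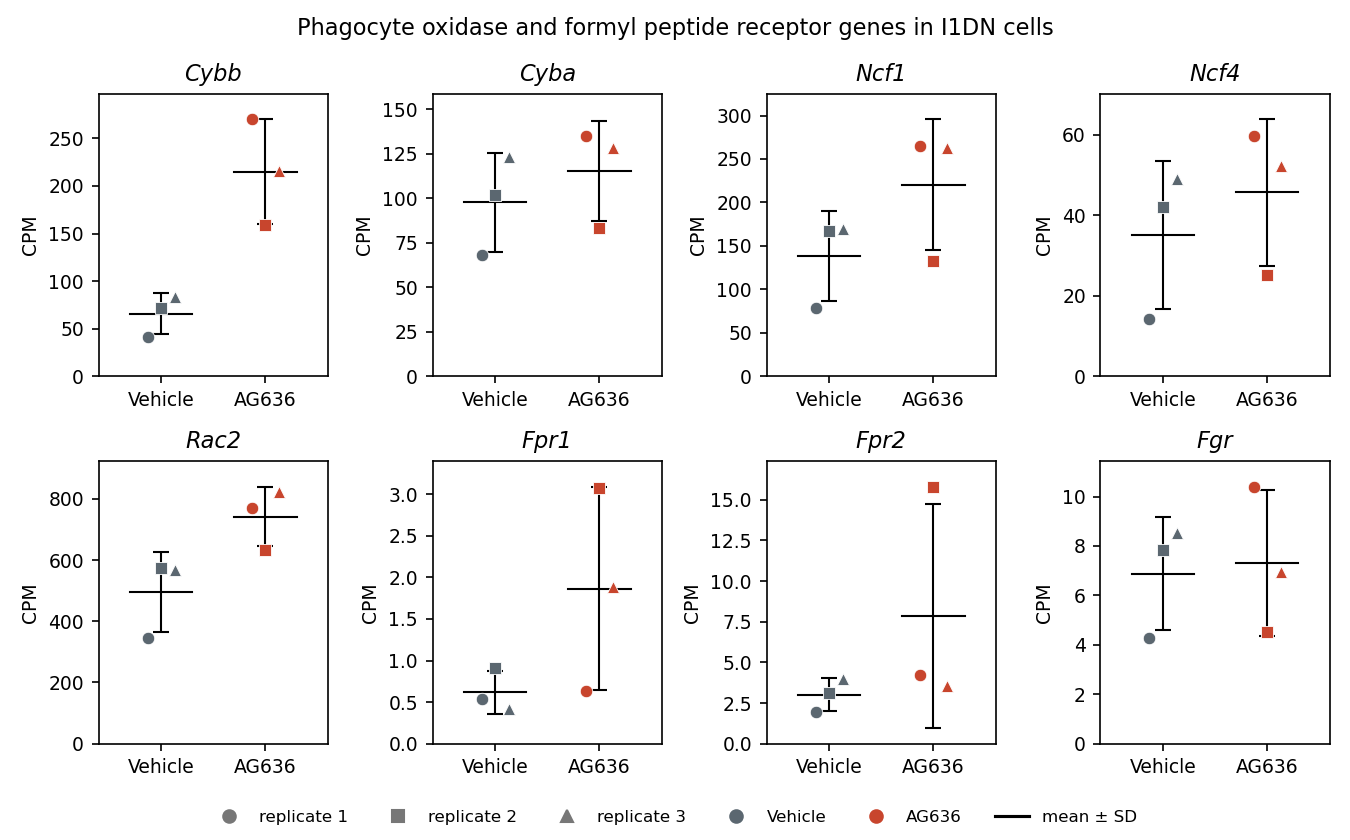
Normalized level in CPM (vertical axes, linear from 0, with a scale of their own in each panel) of the 8 genes in the 3 vehicle and 3 AG636 mice. Points are single mice, with the symbol giving the replicate number, and lines with bars are the mean ± SD. For *Cybb* the AG636 mice lie at 159 CPM or more and the vehicle mice at 83.1 CPM or less, whereas for *Fpr2* a single AG636 mouse at 15.8 CPM stands above the rest.

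*Cybb* (ENSMUSG00000015340) encodes gp91phox, the subunit that carries the electrons, and lies on chromosome X from 9435252 to 9487771 of mm10, on the minus strand. It had 41.4, 72.1 and 83.1 CPM in the vehicle mice and 269.9, 159 and 216 CPM in the AG636 mice, from 4384 counts in all. The lowest AG636 mouse, replicate 2, lay above the highest vehicle mouse, and the groups did not overlap. Means were 65.5 ± 21.6 and 215 ± 55.2 CPM (SD, n = 3 each), a 3.28-fold difference. The log2 fold change was 1.72 (standard error 0.26, edgeR quasi-likelihood test, Benjamini-Hochberg adjusted p = 0.00408), and the exact permutation test gave the smallest two-sided p that 3 mice against 3 allow, 0.1. Ordered from the highest log2 fold change, *Cybb* was at place 100 of the 11092 genes tested. It was called in 14 of 14 alternative fits, with values from 1.46 to 1.89.

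*Cyba* (ENSMUSG00000006519) encodes p22phox, the partner that keeps gp91phox stable, and lies on chromosome 8 from 122424776 to 122432930, on the minus strand. It had 67.9, 102 and 123 CPM with vehicle and 135, 83.2 and 128 CPM with AG636. AG636 replicate 2 fell among the vehicle mice, so the groups overlapped. The means of 97.6 ± 27.9 and 116 ± 28.4 CPM (SD, n = 3 each) differed by less than either SD. The log2 fold change was 0.25 (standard error 0.23, edgeR quasi-likelihood test, Benjamini-Hochberg adjusted p = 0.474), between 0.03 and 0.44 when a single mouse was left out, and it was called in 0 of 14 alternative fits.

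*Cybc1*, which encodes a chaperone needed to assemble the membrane pair, had 86.9 to 103 CPM with vehicle and 99.7 to 117 CPM with AG636. Its log2 fold change was 0.21 (edgeR, Benjamini-Hochberg adjusted p = 0.272). *Hvcn1*, the proton channel that offsets the charge moved by the oxidase, had a log2 fold change of 0.32 (edgeR, Benjamini-Hochberg adjusted p = 0.456). Neither of these helpers of the membrane core was called.

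The cytosolic subunits were led by *Ncf1* (ENSMUSG00000015950), which encodes the organizer p47phox and lies on chromosome 5 from 134220053 to 134229625, on the minus strand. It had 78, 167 and 169.7 CPM with vehicle and 265, 133 and 263 CPM with AG636. AG636 replicates 1 and 3 lay above all vehicle mice, and AG636 replicate 2 lay below 2 of them. Means were 138 ± 52.1 and 220.4 ± 75.4 CPM (SD, n = 3 each), and the log2 fold change was 0.67 (standard error 0.31, edgeR quasi-likelihood test, Benjamini-Hochberg adjusted p = 0.147, and 0.3 in a two-sided exact permutation test). Without AG636 replicate 2 the value was 0.93 and called (edgeR, Benjamini-Hochberg adjusted p = 0.0383). Without the 2 libraries that stand apart it was 0.65 and called (edgeR, Benjamini-Hochberg adjusted p = 0.00838). It was 0.38 without vehicle replicate 1, 0.52 without AG636 replicate 1 and 0.53 without AG636 replicate 3, and not called (edgeR, Benjamini-Hochberg adjusted p = 0.359, 0.353 and 0.35). *Ncf1* was called in 1 of 6 fits that left out a single mouse and in 3 of 14 alternative fits. Exons of *Ncf1* overlap 408 bases of *Gtf2ird2* on the opposite strand. Whether counting used strand is not given, and *Gtf2ird2* had 562 counts against 5831 for *Ncf1*.

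*Ncf4* (ENSMUSG00000071715) encodes p40phox, which binds a phosphoinositide of phagosomes, and lies on chromosome 15 from 78244801 to 78262580, on the plus strand. It had 14.2, 42 and 49.1 CPM with vehicle and 59.7, 25.1 and 52.3 CPM with AG636. Vehicle replicate 1 and AG636 replicate 2 were the lowest of their groups, which overlapped. The log2 fold change was 0.38 (standard error 0.41, edgeR quasi-likelihood test, Benjamini-Hochberg adjusted p = 0.537, and 0.5 in a two-sided exact permutation test). It was -0.01 without vehicle replicate 1 and 0.67 without AG636 replicate 2.

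*Rac2* (ENSMUSG00000033220) encodes the hematopoietic Rac GTPase that joins the active oxidase, and lies on chromosome 15 from 78559167 to 78572783, on the minus strand. With 20175 counts it was the most deeply sampled of the 8 genes. It had 346, 575 and 568 CPM with vehicle and 771, 633 and 822 CPM with AG636. The AG636 mice all lay above the vehicle mice, with means of 742 ± 97.5 against 496 ± 130.2 CPM (SD, n = 3 each), a 1.5-fold difference. The log2 fold change was 0.58 (standard error 0.19, edgeR quasi-likelihood test, Benjamini-Hochberg adjusted p = 0.0523, and 0.1 in a two-sided exact permutation test), just outside the threshold. It passed in 6 of 14 alternative fits, among them DESeq2 at 0.57 (Benjamini-Hochberg adjusted p = 0.0233), limma-voom at 0.61 (Benjamini-Hochberg adjusted p = 0.0453) and edgeR without the 2 libraries that stand apart at 0.48 (Benjamini-Hochberg adjusted p = 0.025). It ranged from 0.36 to 0.69 when a single mouse was left out, and was called in 1 of these 6 fits, without AG636 replicate 2. Without vehicle replicate 1, AG636 replicate 1 or AG636 replicate 3 it was 0.36, 0.55 and 0.5 (edgeR, Benjamini-Hochberg adjusted p = 0.131, 0.133 and 0.157).

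*Rac1*, the ubiquitous relative of *Rac2*, had 381, 487 and 483 CPM with vehicle and 503, 494 and 569 CPM with AG636. The groups did not overlap, and the log2 fold change of 0.21 was not called (edgeR, Benjamini-Hochberg adjusted p = 0.251). The GTPase genes *Rap1a* and *Rap1b*, whose products associate with the membrane core, had log2 fold changes of 0.22 and 0.11 (edgeR, Benjamini-Hochberg adjusted p = 0.25 and 0.636). *Prdx6*, a peroxiredoxin with phospholipase activity that can promote oxidase assembly, had 693, 607 and 496 CPM with vehicle and 355, 408 and 293 CPM with AG636. It was the only called gene among the 6 other oxidase genes reported, at a log2 value of -0.77 (standard error 0.16, edgeR quasi-likelihood test, Benjamini-Hochberg adjusted p = 0.0114), and it was called in 6 of 6 fits that left out a single mouse. The median of these 6 genes was 0.21.

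**Figure D2:**
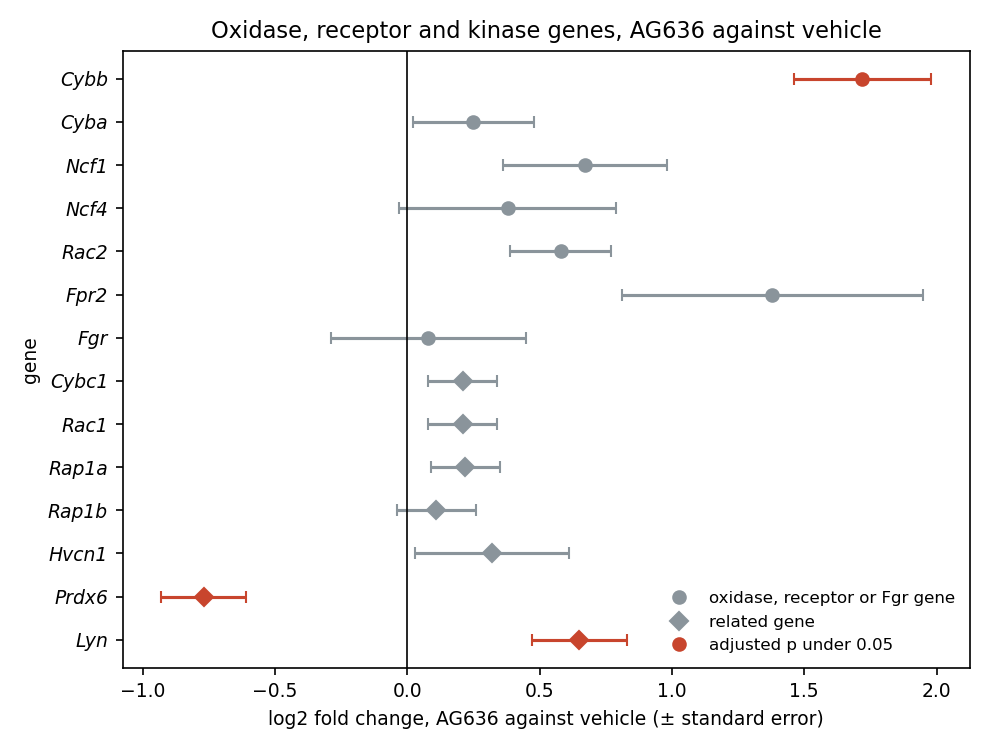
Log2 fold change of AG636 against vehicle (horizontal axis) with its standard error for the 7 genes tested (circles) and for related genes of the oxidase and the Src family (diamonds), from 3 mice per group. Red marks an adjusted p under 0.05, which *Cybb* at 1.72, *Lyn* at 0.65 and *Prdx6* at -0.77 reached.

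The counts of *Cybb* were set against those of its partners within each library, which needs no scaling between libraries. This was done after the values had been seen. *Cybb* per *Cyba* was 0.61, 0.709 and 0.674 in the vehicle mice and 1.99, 1.92 and 1.68 in the AG636 mice. The spread within each group was small, with means of 0.664 ± 0.0502 and 1.86 ± 0.162 (SD, n = 3 each), a 2.8-fold difference. AG636 replicate 2, the lowest of its group for each of the pair, lay within its group in the ratio.

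The mean of *Cybb* per *Ncf1* was 0.484 ± 0.0494 with vehicle and 1.01 ± 0.187 with AG636 (SD, n = 3 each), a 2.09-fold difference. The means of *Cybb* per *Ncf4* differed 2.38-fold and those of *Cybb* per *Rac2* 2.21-fold. In all 4 ratios every AG636 mouse lay above every vehicle mouse. These 4 ratios share the counts of *Cybb*, the gene called, so they restate its difference and are not separate results. *Rac2* per *Cyba* and *Rac2* per *Rac1* did not overlap either, with differences of 1.28-fold and 1.3-fold, whereas *Ncf1* per *Cyba* (two-sided exact permutation p = 0.2) and *Ncf4* per *Ncf1* (two-sided exact permutation p = 0.4) overlapped. Over these 8 ratios, the smallest exact permutation p was 0.1, or 0.133 after Benjamini-Hochberg adjustment, and 3 mice against 3 cannot go lower than 0.1.

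**Figure D3:**
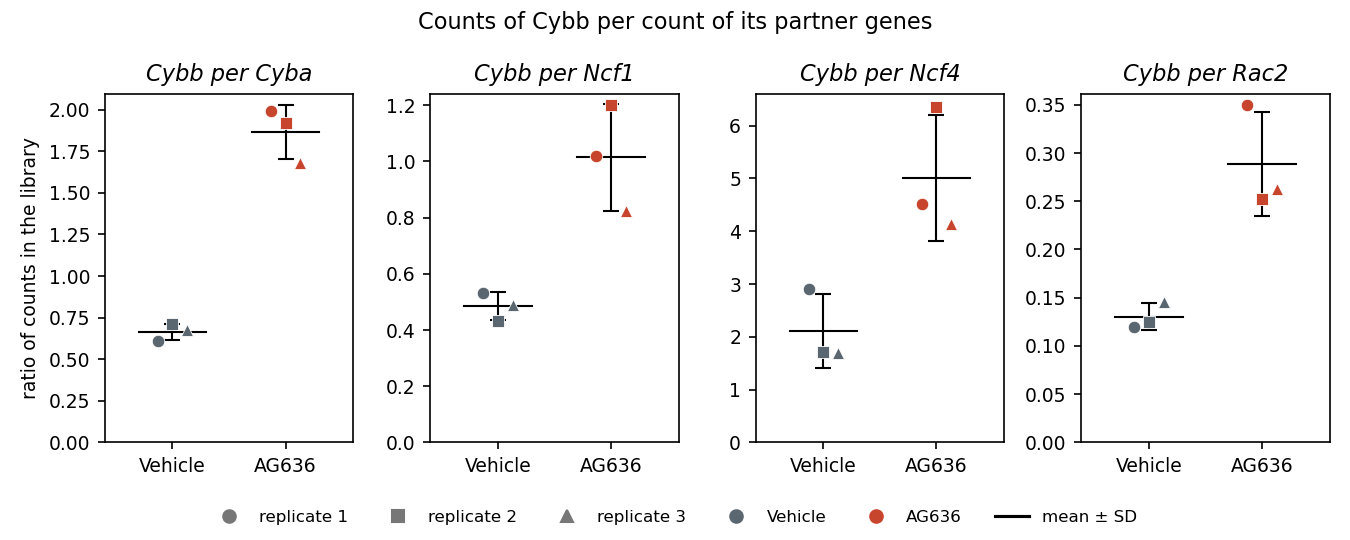
Counts of *Cybb* divided by the counts of each of 4 partner genes in the same library (vertical axes, linear from 0), for 3 vehicle and 3 AG636 mice, with mean ± SD. No AG636 mouse overlaps a vehicle mouse in any panel, and *Cybb* per *Cyba* runs from 0.61 to 0.709 with vehicle and from 1.68 to 1.99 with AG636.

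The receptor genes were sampled by few counts. *Fpr1* (ENSMUSG00000045551), the high-affinity receptor for formylated peptides, lies on chromosome 17 from 17876471 to 17883940, on the minus strand. It had 3, 7 and 2 counts with vehicle and 3, 15 and 10 counts with AG636, or 0.533, 0.912 and 0.416 CPM against 0.635, 3.08 and 1.88 CPM. The groups overlapped (two-sided exact permutation p = 0.2), and *Fpr1* was too low for the fit. A difference in *Fpr1* was not detectable at this depth.

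*Fpr2* (ENSMUSG00000052270) encodes a receptor with a wider range of ligands and lies beside *Fpr1*, from 17887824 to 17893952 on the plus strand of chromosome 17. It had 1.95, 3.13 and 3.96 CPM with vehicle and 4.23, 15.8 and 3.57 CPM with AG636, from 170 counts. AG636 replicate 2 was high and the other AG636 mice lay near the vehicle mice. The log2 fold change was 1.38 (standard error 0.57, edgeR quasi-likelihood test, Benjamini-Hochberg adjusted p = 0.105, and 0.2 in a two-sided exact permutation test). Without AG636 replicate 2 it was 0.38 (edgeR, Benjamini-Hochberg adjusted p = 0.548), and without the 2 libraries that stand apart it was 0.15 (edgeR, Benjamini-Hochberg adjusted p = 0.835).

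The mouse with the lowest levels of oxidase genes in its group had the highest levels of both receptor genes among the AG636 mice. AG636 replicate 2 was the lowest AG636 mouse for *Cybb*, *Cyba*, *Ncf1*, *Ncf4*, *Rac2* and *Fgr* and the highest for *Fpr1* and *Fpr2*. Vehicle replicate 1 was the lowest vehicle mouse for 7 of the 8 genes, all but *Fpr1*.

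Counts of *Fpr2* are uncertain. Of the 1295 distinct runs of 75 bases, the read length, in its annotated transcripts, 20.9% also occur in *Fpr3* or *Gm5966*, and 48 exonic bases overlap *Fpr3* on the same strand. The other 7 genes share 0 such runs with another gene. Runs were counted over whole transcripts, whereas reads come from the 3′ end, and where the shared runs lie was not examined. *Fpr3*, *Fpr-rs3*, *Fpr-rs4*, *Fpr-rs6* and *Fpr-rs7* had 0 counts in each of the 6 libraries, and how reads that map to several places were counted is not given.

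*Fgr* (ENSMUSG00000028874) lies on chromosome 4 from 132974095 to 133001910, on the plus strand. It had 4.27, 7.82 and 8.54 CPM with vehicle and 10.4, 4.52 and 6.96 CPM with AG636, from 233 counts. The groups overlapped, and the log2 fold change of 0.08 was smaller than its standard error of 0.37 (edgeR quasi-likelihood test, Benjamini-Hochberg adjusted p = 0.893, and 0.9 in a two-sided exact permutation test). It was -0.18 without vehicle replicate 1, -0.26 without AG636 replicate 1 and 0.33 without AG636 replicate 2.

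The partner kinase *Lyn*, which is used widely in myeloid and B cells, had 65.9, 105 and 98.3 CPM with vehicle and 127, 132 and 164 CPM with AG636. It was called higher at 0.65 (standard error 0.18, edgeR quasi-likelihood test, Benjamini-Hochberg adjusted p = 0.0325), in 2 of 6 fits that left out a single mouse.

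Around these genes, 11 lists of pathway genes held 125 genes, of which 98 were tested. Of these, 22 were called higher and 8 lower, against 10.3% and 11% of all genes tested. Without AG636 replicate 3 the counts were 6 and 3, without vehicle replicate 1 they were 6 and 4, without vehicle replicate 2 they were 7 and 4, without AG636 replicate 1 they were 9 and 3, and without the 2 libraries that stand apart they were 23 and 6. Called in each of the 6 fits that left out a single mouse were *Cxcr2*, *Fcer1g*, *Itgb2* and *Ptpn22* among the higher and *Prdx6* and *Txn2* among the lower genes, and the other 24 lost their call in at least 1 of these fits. Other catalytic NADPH oxidases and their partners (*Nox1*, *Nox3*, *Nox4*, *Noxo1*, *Noxa1*, *Duox1*, *Duox2*, *Duoxa1* and *Duoxa2*) were too low to test in all 9 cases, with a sum of at most 2.22 CPM in a library.

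Of 11 other receptors for chemoattractants, 7 were tested, 5 were called higher and 0 lower, with a median log2 fold change of 1.12. Over all genes tested, 10.3% were called higher. The count of 5 fell to 1 without vehicle replicate 2 and to 2 without vehicle replicate 1 or AG636 replicate 3. It was 3 or 4 without any other single mouse and 4 without the 2 libraries that stand apart. *Cxcr2*, the receptor that guides neutrophils to CXC chemokines, had 17.2, 20.3 and 22.7 CPM with vehicle and 46.1, 46 and 39.1 CPM with AG636, without overlap. Its log2 fold change was 1.12 (standard error 0.17, edgeR quasi-likelihood test, Benjamini-Hochberg adjusted p = 0.00408). *Ccr1*, a receptor of CC chemokines, had a log2 fold change of 2.0 (standard error 0.42, edgeR, Benjamini-Hochberg adjusted p = 0.012). The receptor of platelet-activating factor, *Ptafr*, and that of complement C3a, *C3ar1*, had 1.12 and 1.14 (edgeR, Benjamini-Hochberg adjusted p = 0.0196 and 0.0304). *Ptafr* kept its call in 2 and *C3ar1* in 1 of 6 fits that left out a single mouse. Without the 2 libraries that stand apart *C3ar1* was not called.

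Of 15 genes that couple or desensitize such receptors, 15 were tested, 3 were called higher and 1 lower, with a median of 0.42. Over all genes tested, 21.3% were called in either direction. Without vehicle replicate 1, vehicle replicate 2 or AG636 replicate 3, 0 of the 15 were called. *Prex1*, a Rac exchange factor driven by Gβγ and PI3K, was called at 0.67 (edgeR, Benjamini-Hochberg adjusted p = 0.0269), and the G protein subunit gene *Gng2* at 0.85 (edgeR, Benjamini-Hochberg adjusted p = 0.0308). The pair of β-arrestins, which end receptor signaling, had log2 fold changes of opposite sign. *Arrb1* was called lower at -0.66 (edgeR, Benjamini-Hochberg adjusted p = 0.0299) and *Arrb2* higher at 0.76 (edgeR, Benjamini-Hochberg adjusted p = 0.0303). *Arrb1* kept its call in 1 and *Arrb2* in 2 of 6 fits that left out a single mouse. Neither was called without the 2 libraries that stand apart. Of 12 kinases that phosphorylate oxidase subunits, 11 were tested and 0 were called by edgeR, with a median of 0.18. Of these, *Pak1* and *Mapk3* had an unadjusted p under 0.05 in edgeR, DESeq2 called 1 of the 11 and limma-voom 0. Without AG636 replicate 2, and without the 2 libraries that stand apart, 2 of the 11 were called higher.

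Of 11 other Src family kinases and regulators, 8 were tested, 5 were called higher and 0 lower, with a median of 0.60. The count of 5 became 2 to 4 when a single mouse was left out and 3 without the 2 libraries that stand apart. Over all genes tested, 10.3% were called higher. They included the phosphatases *Ptpn22* at 1.19 and *Ptprc* at 0.65 and the adaptor *Pag1* at 0.99 (edgeR, Benjamini-Hochberg adjusted p = 0.00469, 0.0142 and 0.0202). *Ptprc* encodes CD45, which removes inhibitory phosphates from Src kinases, while *Pag1* recruits the inhibitory kinase Csk.

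Of 12 phagocytic and ITAM receptors with their kinases, 11 were tested, 6 were called higher and 0 lower, with a median of 0.87. Over all genes tested, 10.3% were called higher. The count of 6 fell to 2 without vehicle replicate 1, vehicle replicate 2, AG636 replicate 1 or AG636 replicate 3. It was 5 without either other mouse and 5 without the 2 libraries that stand apart. *Itgb2*, the shared chain of leukocyte integrins, had 60.6, 58.3 and 76.8 CPM with vehicle and 144, 118 and 151 CPM with AG636. The log2 fold change of *Itgb2* was 1.08 (standard error 0.15, edgeR quasi-likelihood test, Benjamini-Hochberg adjusted p = 0.00329). The Fc receptor chain *Fcer1g* had 1.09 and the Fcγ receptor *Fcgr4* had 1.55 (edgeR, Benjamini-Hochberg adjusted p = 0.0115 and 0.0269). *Itgam* encodes CD11b, against which the cells were sorted, and had 12.1, 18.2 and 26.9 CPM with vehicle and 59.9, 31.2 and 41 CPM with AG636. The log2 fold change of *Itgam* was 1.21 (standard error 0.31, edgeR quasi-likelihood test, Benjamini-Hochberg adjusted p = 0.0219). *Fcgr4* kept its call in 1 and *Itgam* in 2 of 6 fits that left out a single mouse. Without the 2 libraries that stand apart *Fcgr4* was not called.

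Genes that remove peroxide or superoxide did not move in a single direction. Of 17 antioxidant enzymes, 17 were tested, 2 were called higher and 4 lower, with a median of -0.03. The mitochondrial enzymes *Txn2* and *Sod2* were called lower at -0.65 and -0.62, as was the cytosolic *Prdx2* at -0.62, and *Prdx5* was called higher at 0.64 (edgeR, Benjamini-Hochberg adjusted p = 0.0126, 0.0171, 0.0354 and 0.0309). Of 13 enzymes that supply NADPH, the fuel of the oxidase, 12 were tested, 0 were called higher and 2 lower, with a median of -0.09. These were *Pgls* and *Tkt* of the pentose phosphate pathway, at -0.55 and -0.48 (edgeR, Benjamini-Hochberg adjusted p = 0.0156 and 0.0411). Of 14 transcription factors of myeloid and oxidase genes, 11 were tested and 1 was called, *Rel* at 1.0 (edgeR, Benjamini-Hochberg adjusted p = 0.0204), with a median of 0.50. The count was 3 with DESeq2, 5 without AG636 replicate 2 and 4 without the 2 libraries that stand apart, all higher. It was 0 without vehicle replicate 1, AG636 replicate 1 or AG636 replicate 3.

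**Figure D4:**
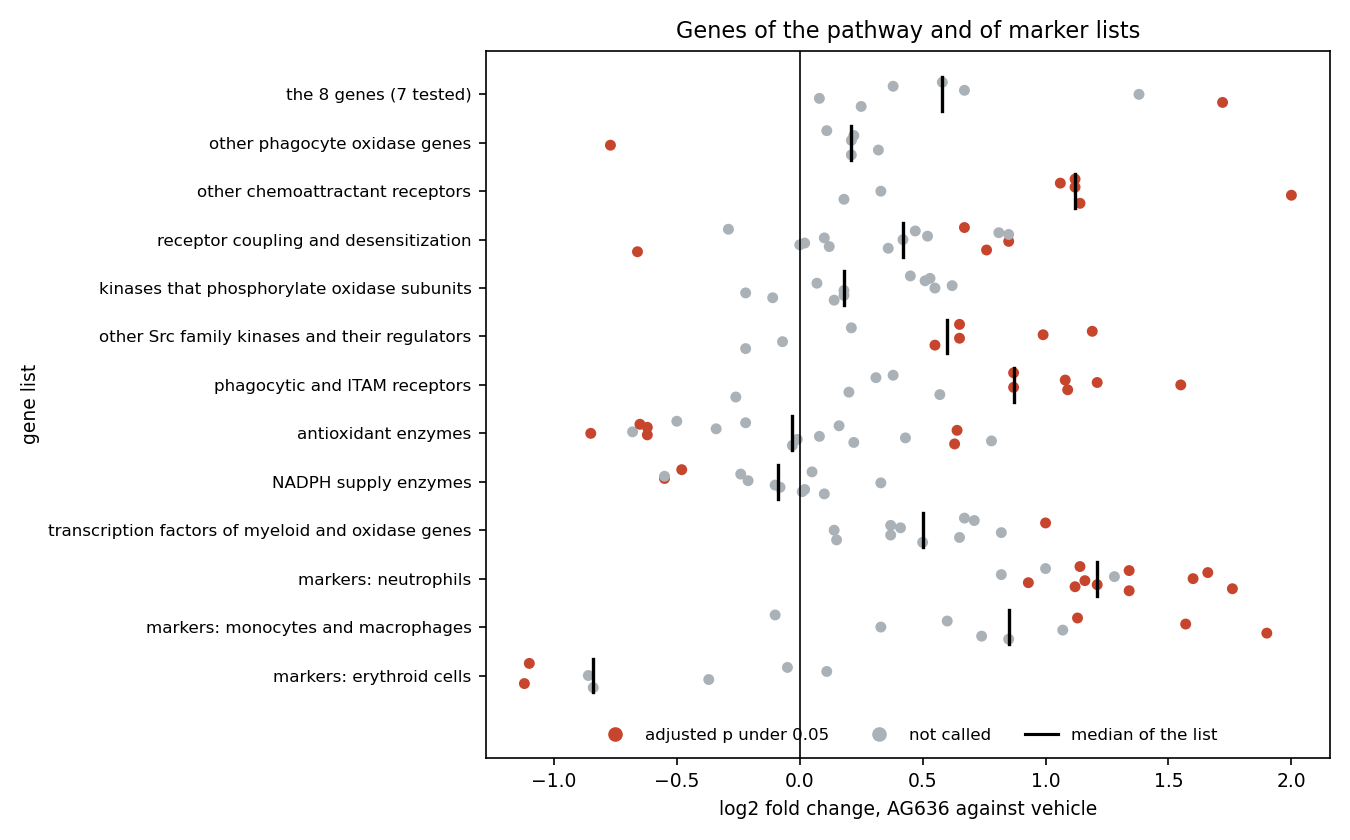
Log2 fold change of AG636 against vehicle (horizontal axis) for each tested gene of the pathway lists and of 3 marker lists (rows), with the median of each list as a black bar and genes at an adjusted p under 0.05 in red. Medians run from -0.09 for NADPH supply enzymes to 1.12 for other chemoattractant receptors among the pathway lists, and the median of the neutrophil markers is 1.21.

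Markers of mature myeloid cells were higher with AG636 in the same libraries as *Cybb*. Of 13 neutrophil markers, 10 were called higher and 0 lower, with a median of 1.21. The count was 5 without vehicle replicate 1, 5 without vehicle replicate 2, 7 to 10 without any other single mouse and 9 without the 2 libraries that stand apart. Their summed level ranged from 1099 to 2483 CPM with vehicle and from 3047 to 6110.1 CPM with AG636. *S100a9* had a log2 fold change of 1.14 (edgeR, Benjamini-Hochberg adjusted p = 0.0304, called in 3 of 6 fits that left out a single mouse) and *S100a8* one of 1.0 (edgeR, Benjamini-Hochberg adjusted p = 0.0872). Of 12 monocyte and macrophage markers, 9 were tested and 3 were called higher, with sums of 75.7 to 110.4 CPM with vehicle and 174 to 241 CPM with AG636. *Cd68* had a log2 fold change of 1.57 and *Ly6c2* one of 1.13 (edgeR, Benjamini-Hochberg adjusted p = 0.00298 and 0.0408). Of the 3 called, 1 was left without vehicle replicate 2 or without AG636 replicate 3, 2 without any other single mouse and 3 without the 2 libraries that stand apart. *Cd68* was called in 6 of 6 fits that left out a single mouse and *Ly6c2* in 1 of 6. With limma-voom or the replicate block 1 marker of this list was called. No marker of either list was at 0 in all libraries, *Cxcr2* and *Itgam* stand on both the neutrophil list and a pathway list, and the markers' part in the result for *Cybb* was not tested. In sorted bulk cells, a change in the share of more mature cells and a change of RNA per cell cannot be told apart.

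The 6 T cell markers summed to 0.711 to 6.39 CPM over the libraries and 0 were tested. B cell markers summed to 5.51 to 19.3 CPM, with *Cd79b* at 0.55 (edgeR, Benjamini-Hochberg adjusted p = 0.25), and NK cell markers to 4.04 to 9.6 CPM, with *Gzma* at -0.03 (edgeR, Benjamini-Hochberg adjusted p = 0.963). Dendritic cell markers, of which only *Itgax* was tested (0.82, edgeR, Benjamini-Hochberg adjusted p = 0.107), summed to at most 5.64 CPM. Erythroid markers summed to 1635 to 4649 CPM with vehicle, the highest in vehicle replicate 1, and to 1934 to 3209 CPM with AG636, with 0 called higher and 2 lower of 7. That count was 0 without AG636 replicate 1 or replicate 3, 1 without vehicle replicate 1 or replicate 2 and 5 without vehicle replicate 3. The hemoglobin genes *Hba-a2* and *Hbb-bs* had log2 fold changes of -0.86 and 0.11 (edgeR, Benjamini-Hochberg adjusted p = 0.117 and 0.842). Of 9 markers of mast cells, basophils and eosinophils, 8 were tested, 2 were called higher and 1 lower. Called were *Cpa3* at 0.96 (edgeR, Benjamini-Hochberg adjusted p = 0.0423), *Siglecf* at 1.6 and *Epx* at -2.27. *Siglecf* and *Epx* were named after their values were seen. *Prg2* at -1.54 was not called (edgeR, Benjamini-Hochberg adjusted p = 0.0661). *Cpa3* kept its call in 1, *Epx* in 2 and *Siglecf* in 6 of 6 fits that left out a single mouse. Without the 2 libraries that stand apart 2 of the 8 markers tested were called higher and 2 lower.

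For each of the 7 genes tested, the genes nearest in pattern were taken as those with the smallest root mean square difference of centred log2 CPM over the 6 libraries, which share the same group difference. Nearest to *Cybb* were *Ccl6* (0.12), *9030619P08Rik* (0.13) and *Cd68* (0.14). *Cyba* ran with *Rufy1* (0.05), *Hexa* (0.06) and *Twf2* (0.06), and *Ncf1* with *Cep19* (0.07), *Tm6sf1* (0.08) and *Gdpd3* (0.10). *Rac2* had the nearest neighbours *Dock10* (0.05), *P2ry2* (0.06) and *Fxyd5* (0.06), while *Ncf4* had *Ctsh* (0.16), *Cdk18* (0.18) and *Jdp2* (0.18). *Fgr* was nearest to *Clec7a* (0.09), *Tmem50b* (0.12) and *Ift88* (0.14). No gene followed *Fpr2* as closely, and its nearest were *Slc28a2* (0.30), *Il4ra* (0.31) and *Crispld2* (0.32). The 8 genes themselves were left out of this search.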

How the data were processed

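RNA was measured by 3′ end sequencing of sorted I1DN cells from 6 mice, and the submitters' labels gave the groups. The authors deposited raw counts per gene, without normalization. Per the labels' processing notes, reads were trimmed with cutadapt 1.9.1, mapped to mm10 with HISAT2 2.0.4 and counted with Subread 1.5.0-p3, and the methods of the study name other versions of the first and last tool. Strand and multi-mapping settings and the annotation release are not given in the sources used here. Discarding reads that match several genes could lower the counts of *Fpr2*. The deposited column of gene lengths was not used, and the number of unused per-sample columns was 0. GENCODE's mouse annotation named 54723 of the 54838 identifiers.

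Genes were filtered with filterByExpr (minimum count 10, minimum total count 15) and compared in R 4.3.3 with edgeR 4.0.16, by TMM scaling and the quasi-likelihood test without a block, with Benjamini-Hochberg adjustment over all 11092 genes. The standard error is the log2 fold change divided by the square root of F. CPM use the scaled library sizes, and log2 CPM a prior count of 2. The scripts were tested on simulated data. Single values were also compared by exact permutation of 3 against 3. The median standard error was 0.195 and the median biological coefficient of variation 0.167. Floors of 3 counts cover counting error only, and no molecular identifiers are described.

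The members, the lists and the tests were chosen with earlier results of these data known. Named are all members, up to 4 called genes of each pathway list and genes of the same complex or family. Also named are the gate genes, the 2 markers of each list with the most counts and the 3 genes nearest in pattern. *Elane*, *Siglecf* and *Epx* were named after their values were seen. Alternatives were DESeq2 1.42.0, limma-voom (limma 3.58.1), other scalings, filters and thresholds, a replicate block and leaving out each mouse. The ratios, the calls of list genes under each alternative and the fit without 2 libraries were added after seeing the data. Some genes of these lists are not reported here, and other experiments of the study were not analysed here.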

Additional observations from a re-analysis of the deposited data

How the results depend on the processing

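*Cybb* was called higher in 14 of 14 alternative fits. The number of the 8 genes called higher was 1 in edgeR with all mice, 2 with DESeq2, limma-voom and library size alone (*Cybb* and *Rac2*), 3 without the 2 libraries that stand apart (with *Ncf1*) and 4 with no filter (with *Ncf1* and *Fpr2*), and it ranged from 1 to 3 when a single mouse was left out. With no filter the prior degrees of freedom were infinite, against 6.13 with it. Signs turned for *Ncf4* without vehicle replicate 1 (-0.01) and for *Fgr* without vehicle replicate 1 (-0.18) or AG636 replicate 1 (-0.26), against highest values of 0.67 and 0.33 without AG636 replicate 2, and the cause was not tested.

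At an adjusted p under 0.01, 230 genes were higher and 324 lower. When a single mouse was left out, 399 to 1074 genes were higher and 452 to 1298 lower, and of the genes on the pathway lists 6 to 27 were higher and 3 to 9 lower. Library size alone left 5 list genes lower, and so did the replicate block, against 8. Each left-out mouse leaves 2 against 3.

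Same-numbered samples are different mice, and their deviations from the group means correlated at -0.0573, -0.178 and 0.224. With 3 mice per group, these values cannot decide whether the numbers mark a shared batch. With the replicate block 1961 genes were called against 2367, the called member was still *Cybb*, and not every sample correlated best with its own number. Depth limits *Fpr1*, *Fpr2* and *Fgr*, which had 40, 170 and 233 counts in all.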
